A study of Mus musculus with 12 samples.

Results

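The genes described here encode 10 proteins of the extracellular matrix that are not collagens: the small leucine-rich proteoglycans Dcn and Lum, the matrix glycoproteins Sparc, Fn1 and Ecm1, the elastic fibre proteins Eln, Fbn1 and Mfap5, and the crosslinking enzymes Lox and Loxl1. They were found on the arrays by gene name, and 14 probes carried one of these names. Of the 10 genes, 9 passed the filter on background, out of 18021 gene names that passed and 34844 on the array, and Lox did not. Left ventricular RNA of 12 mice aged 6 months was measured on one-colour Agilent arrays, with 1 heart per array and 4 hearts in each of 3 groups. The mutants descended from crosses of a Floxed-Nkx2-5-ΔNeo line with Cx40-creERT2 mice, whose Cre is induced by tamoxifen in cells that express Cx40 (Gja5). For Nkx2-5ΔTrbE10 hearts (TrbE10, named Nkx2-5Δtrab in the labels), pregnant females were given tamoxifen on E10.5 and again on E11.5, while the ventricular trabeculae form. For Nkx2-5ΔTrbE14 hearts (TrbE14, named Nkx2-5Δcomp in the labels) the injections fell on E13.5 and E14.5, while the trabeculae compact. The labels give the control mice as not injected, whereas the methods describe controls as littermates that carry the floxed alleles and no Cre, so that their exposure to tamoxifen in the womb is not settled here. Deletion in this model occurs in part of the cells, those that express the Cre at induction, which include trabecular and some atrial myocardium, while RNA came from the left ventricular wall with all its cell types.

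The extracellular matrix of the ventricle is made largely by fibroblasts, with contributions from vessel walls, endocardium and the adventitia of coronary arteries. Small leucine-rich proteoglycans bind collagen fibrils and set their spacing, and matrix glycoproteins link fibrils to cells and to each other. An elastic fibre has a core of elastin laid on a scaffold of fibrillin microfibrils, and lysyl oxidases join elastin or collagen chains by oxidizing lysine residues.

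Nkx2-5, the gene floxed in these mice, had a lower log2 signal in all 4 TrbE10 hearts than in any control heart, with a log2 change of -0.65 (standard error 0.14, limma adjusted p = 0.0471). In TrbE14 hearts its log2 change was -0.59 (standard error 0.14, limma adjusted p = 0.107), again with no overlap with control hearts. Gja5, the gene whose promoter drives the Cre, had log2 changes of -0.65 (limma adjusted p = 0.411) and -0.47 (limma adjusted p = 0.574), with overlapping groups. All 8 cardiomyocyte markers examined were well above background on every array. The arrays came on 2 slides, of which the first carried the control and TrbE14 hearts and the second carried the TrbE10 hearts alone. Slide and group therefore cannot be told apart for TrbE10, while TrbE14 and control hearts were compared within a slide. Hearts with Y-linked signal numbered 1 of 4 in control, 2 of 4 in TrbE10 and 3 of 4 in TrbE14, and with sex as a covariate the same members were called.

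A probe is a strand of 60 bases on the array. For a gene with several probes the brightest one that passed the filter stood for the gene, and a change was called when limma's Benjamini-Hochberg adjusted p over all filtered probes was under 0.05. The sequences of the probes for Ecm1 and Dcn, the 2 genes called in both mutants, show what was measured. The dimmer of the Ecm1 probes spans 310 bases of the minus strand of chr3:95540094-95540403 in mm9, so that 250 bases of the genome are missing from it and it matches spliced RNA. The Dcn probe lies on the plus strand of chr10:96980233-96980292 and runs in an open frame up to a stop codon, set in capitals, after which the remaining bases are not shown.
Ecm1: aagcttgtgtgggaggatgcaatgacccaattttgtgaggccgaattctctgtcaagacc
Dcn: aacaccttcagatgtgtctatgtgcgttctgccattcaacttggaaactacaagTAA
The brighter Ecm1 probe maps to chr3:95538120-95538178. The other probes used map to chr10:97035210-97035269 for Lum, chr11:55208939-55208998 for Sparc, chr1:71632116-71632175 for Fn1, chr5:135179129-135179188 for Eln, chr2:125126727-125126786 for Fbn1, chr6:122478591-122478650 for Mfap5 and chr9:58138570-58138629 for Loxl1, all in mm9. These positions come from the scanner files, and no annotation of that build was used here to place them in exons.

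Most of these matrix genes had a higher signal in mutant than in control hearts, and few of the differences passed the test over all genes. In TrbE10 hearts 2 of the 9 measured genes were called, Ecm1 and Dcn, both higher, where 1.26% of all genes tested were called higher. In TrbE14 hearts 3 of the 9 were called, Ecm1, Fbn1 and Dcn, all higher, where 0.538% of all genes tested were called higher. The median log2 change of the 9 genes was 0.36 in TrbE10 and 0.51 in TrbE14 hearts, against medians of -0.02 and -0.03 over all genes tested. All 9 changes were above 0 in TrbE10 hearts, and 8 of 9 in TrbE14 hearts, the exception being Lum. Over all 18021 genes tested, 8176 changes were above 0 in TrbE10 and 7979 in TrbE14 hearts. At an unadjusted p under 0.05, 6 of the 9 were higher in TrbE10 hearts (7.82% of all genes) and 7 of the 9 in TrbE14 hearts (6.51% of all genes). Every TrbE10 heart lay above every control heart for 2 of the 9 genes (4.97% of all genes), and every TrbE14 heart did so for 6 of the 9 (4.66% of all genes). The 12 probes of these 9 genes were well above background on all 12 arrays, so none of them passed the filter through mutant hearts alone. Both comparisons share the same 4 control hearts. In bulk tissue, more cells of a type and more RNA per cell cannot be told apart. Fitted within their slide, on the 8 control and TrbE14 arrays alone, the TrbE14 changes were called for the same 3 genes, with adjusted p of 0.00574 for Ecm1, 0.0295 for Fbn1 and 0.0369 for Dcn. In the corresponding fit of control and TrbE10 arrays alone, 1 gene was called, Ecm1, and Dcn was not (adjusted p = 0.0869).

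**Figure D1:**
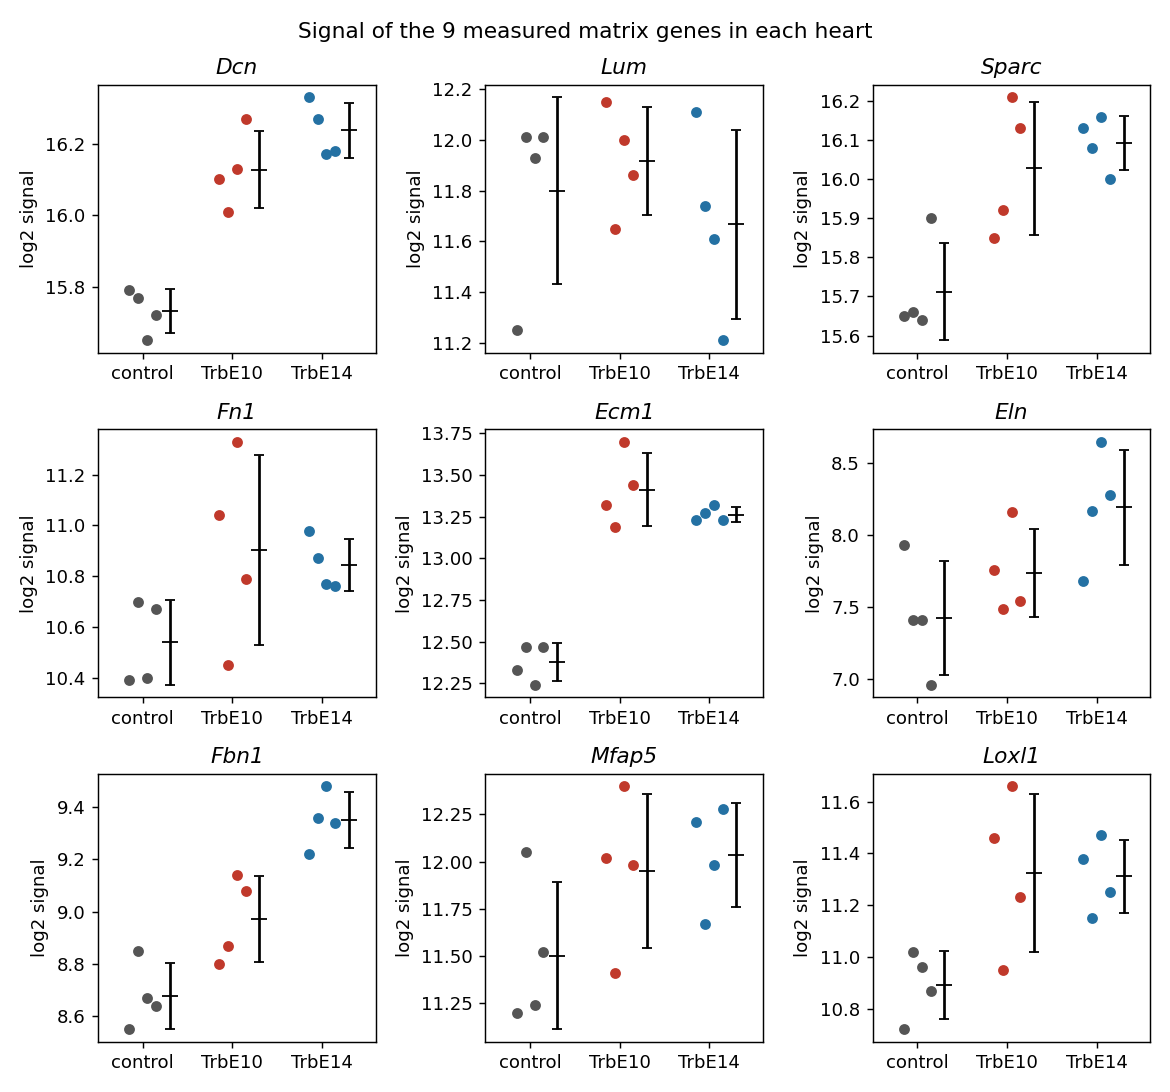
Log2 signal (y axis, a scale of its own in each panel) of the 9 measured genes in each of the 12 hearts, grouped on the x axis as control, TrbE10 and TrbE14, with the mean and SD of each group as a bar beside the points. The control hearts stand below all mutant hearts for Dcn and Ecm1, and the groups overlap for Lum.

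Decorin, encoded by Dcn, is the small proteoglycan that coats collagen fibrils and binds TGF-beta. Its log2 signal was 15.79, 15.77, 15.65 and 15.72 in control hearts, 16.10, 16.01, 16.13 and 16.27 in TrbE10 hearts, and 16.33, 16.27, 16.17 and 16.18 in TrbE14 hearts. All 8 mutant hearts lay above all 4 control hearts. In TrbE10 hearts Dcn rose 1.31-fold, or by 0.39 in log2 units (standard error 0.08, limma adjusted p = 0.0345). It rose by 0.51 in TrbE14 hearts, or 1.42-fold (standard error 0.08, limma adjusted p = 0.0162). The exact two-sided permutation test over the 70 label orders of 8 hearts gave p = 0.0286 for each mutant, the smallest p that it allows. In TrbE10 hearts the call of Dcn was lost when 9 of the 12 arrays were left out in turn, with an adjusted p of up to 0.0999, and kept without TrbE10 replicate 2, TrbE14 replicate 1 or TrbE14 replicate 3. In TrbE14 hearts it was lost without control replicate 3, control replicate 4, TrbE14 replicate 1 or TrbE14 replicate 2, with an adjusted p of up to 0.0594. With arrays scaled to their 75th percentile in place of quantile normalization, Dcn was called in neither mutant (adjusted p = 0.101 in TrbE10 and 0.0588 in TrbE14 hearts).

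Lumican, encoded by Lum, is a related proteoglycan that also regulates fibril assembly. Its log2 signal was 11.25, 12.01, 11.93 and 12.01 in control hearts, 12.15, 11.65, 12 and 11.86 in TrbE10 hearts, and 12.11, 11.74, 11.61 and 11.21 in TrbE14 hearts. The 3 groups overlapped, with control replicate 1 and TrbE14 replicate 4 the lowest of the 12 hearts. The log2 change was 0.12 in TrbE10 hearts (95% interval -0.35 to 0.59, limma adjusted p = 0.832) and -0.14 in TrbE14 hearts (95% interval -0.60 to 0.33, limma adjusted p = 0.795). Without control replicate 1 the direction in TrbE10 hearts turned, with a log2 change of -0.07.

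Ecm1, a secreted glycoprotein that binds several other matrix proteins, had the largest change of the 9 genes in both mutants. Its log2 signal was 12.33, 12.47, 12.24 and 12.47 in control hearts, 13.32, 13.19, 13.70 and 13.44 in TrbE10 hearts, and 13.23, 13.27, 13.32 and 13.23 in TrbE14 hearts. All 8 mutant hearts lay above all 4 control hearts, and the TrbE14 hearts lay close together (SD 0.04). Against control, TrbE10 hearts had 2.05-fold more signal, a rise of 1.04 in log2 units (standard error 0.11, limma adjusted p = 0.000872). It rose by 0.88 in TrbE14 hearts, or 1.85-fold (standard error 0.11, limma adjusted p = 0.00345). The dimmer probe, whose sequence is shown above, gave log2 changes of 1.04 (limma adjusted p = 0.0232) and 0.89 (limma adjusted p = 0.0732). Ecm1 was called in both mutants with each of the 12 arrays left out, at adjusted p of 0.000707 to 0.00535 in TrbE10 hearts and 0.0017 to 0.017 in TrbE14 hearts.

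Sparc encodes osteonectin, a collagen-binding protein that takes part in fibril assembly. The log2 signal of Sparc was 15.65, 15.66, 15.64 and 15.90 in control hearts, 15.85, 15.92, 16.21 and 16.13 in TrbE10 hearts, and 16.13, 16.08, 16.16 and 16.00 in TrbE14 hearts. TrbE10 replicate 1 lay below control replicate 4, whereas all TrbE14 hearts lay above all control hearts. The log2 change was 0.32 (standard error 0.10, limma adjusted p = 0.148) in TrbE10 and 0.38 (standard error 0.10, limma adjusted p = 0.138) in TrbE14 hearts, neither of which was called. A dimmer probe for Sparc gave 0.79 (limma adjusted p = 0.232) and 0.55 (limma adjusted p = 0.443), also not called.

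Fn1 encodes fibronectin, the glycoprotein to which integrins bind and on which other fibrils assemble. Fibronectin had a log2 signal of 10.39, 10.70, 10.40 and 10.67 in control hearts, 11.04, 10.45, 11.33 and 10.79 in TrbE10 hearts, and 10.98, 10.87, 10.77 and 10.76 in TrbE14 hearts. The spread was widest in TrbE10 hearts, where replicate 2 fell within the control range and replicate 3 was the highest of the 12 hearts. The log2 change was 0.36 (standard error 0.16, limma adjusted p = 0.305) in TrbE10 and 0.31 (standard error 0.16, limma adjusted p = 0.438) in TrbE14 hearts, so that Fn1 was not called in either.

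Fbn1 encodes fibrillin-1, the main protein of the microfibrils that carry elastin and bind latent TGF-beta complexes. The log2 signal of Fbn1 was 8.55, 8.85, 8.67 and 8.64 in control hearts, 8.80, 8.87, 9.14 and 9.08 in TrbE10 hearts, and 9.22, 9.36, 9.48 and 9.34 in TrbE14 hearts. The TrbE14 hearts lay above all 8 other hearts, and TrbE10 replicate 1 fell within the control range. Fbn1 rose by 0.67 on the log2 scale in TrbE14 hearts, or 1.59-fold (standard error 0.10, limma adjusted p = 0.0147). In TrbE10 hearts the log2 change was 0.29 (standard error 0.10, limma adjusted p = 0.194) and was not called. The call in TrbE14 hearts was lost without control replicate 1, control replicate 3 or control replicate 4, with an adjusted p of up to 0.0549, and the log2 change stayed between 0.63 and 0.73 over all arrays left out.

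Because Nkx2-5 is a transcription factor, stretches before the annotated start of a gene were searched. Such a stretch was at hand for 2 of the 10 genes, Fbn1 and Sparc, and not for Dcn or Ecm1. That of Fbn1 is shown because Fbn1 was called, and it is also the called gene for which the mutants stood farthest apart. The stretch covers 203 bases of the minus strand, chr2:125506486-125506688 in GRCm38.p6, as given by RefSeq, with the GC box GGGCGG in capitals.
Fbn1: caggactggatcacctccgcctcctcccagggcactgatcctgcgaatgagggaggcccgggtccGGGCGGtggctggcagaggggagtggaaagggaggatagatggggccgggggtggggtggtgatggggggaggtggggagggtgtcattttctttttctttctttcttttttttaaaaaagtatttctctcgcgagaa
Searched on both strands, GGGCGG had 1 match in this stretch, and 25.2% of all promoters in the table had it within the same length. The letters TNAAGTG, a motif that Nkx2-5 is known to bind, had 0 matches here (8.47% of all promoters), and TATAAA had 0 matches (9.27% of all promoters). In 250 bases before Sparc, not shown, GGGCGG (32.7% of all promoters), TNAAGTG (10.1%) and TATAAA (12.4%) each had 0 matches. A match is a description of the sequence, and the absence of these letters concerns these windows alone.

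Eln encodes elastin itself. The log2 signal of Eln was 7.93, 7.41, 7.41 and 6.96 in control hearts, 7.76, 7.49, 8.16 and 7.54 in TrbE10 hearts, and 7.68, 8.17, 8.65 and 8.28 in TrbE14 hearts. Control replicate 1 lay above TrbE14 replicate 1, and the groups overlapped in every comparison. The log2 change was 0.31 (95% interval -0.22 to 0.84, limma adjusted p = 0.562) in TrbE10 hearts and 0.77 (95% interval 0.24 to 1.30, limma adjusted p = 0.219) in TrbE14 hearts, neither of which was called.

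Mfap5, a small glycoprotein attached to the fibrillin microfibrils, had a log2 signal of 11.20, 12.05, 11.24 and 11.52 in control hearts, 12.02, 11.41, 12.40 and 11.98 in TrbE10 hearts, and 12.21, 11.67, 11.98 and 12.28 in TrbE14 hearts. Control replicate 2 lay within the range of both mutants. The log2 change was 0.45 (standard error 0.24, limma adjusted p = 0.38) in TrbE10 and 0.53 (standard error 0.24, limma adjusted p = 0.359) in TrbE14 hearts, not called in either.

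Loxl1 encodes the lysyl oxidase that acts mainly on elastin. The log2 signal of Loxl1 was 10.72, 11.02, 10.96 and 10.87 in control hearts, 11.46, 10.95, 11.66 and 11.23 in TrbE10 hearts, and 11.38, 11.15, 11.47 and 11.25 in TrbE14 hearts. TrbE10 replicate 2 was the only mutant heart within the control range. The log2 change was 0.43 (standard error 0.14, limma adjusted p = 0.168) in TrbE10 and 0.42 (standard error 0.14, limma adjusted p = 0.257) in TrbE14 hearts, and neither was called. Without TrbE10 replicate 2, Loxl1 was called in TrbE10 hearts, with a log2 change of 0.56 and an adjusted p of 0.0442. A dimmer probe for Loxl1 gave 0.31 (limma adjusted p = 0.388) and 0.38 (limma adjusted p = 0.35).

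Lox, the founding lysyl oxidase, crosslinks collagen as well as elastin and was barely measurable in these hearts. None of its probes was well above background in a control heart (0 of 4). The brighter of its 2 probes was so on 2 of 4 TrbE10 and 1 of 4 TrbE14 arrays, and the dimmer on 1 of 4 arrays of each mutant. The log2 signal of the brighter probe was 4.09, 4.24, 3.61 and 4.72 in control hearts, 3.79, 4.40, 5.39 and 5.19 in TrbE10 hearts, and 4.13, 4.11, 3.81 and 5.00 in TrbE14 hearts. For this probe the groups overlapped. The dimmer probe had 3.06, 2.86, 2.34 and 2.33 in control hearts and 2.35, 2.93, 4.92 and 4.71 in TrbE10 hearts, which overlapped. Its TrbE14 values of 3.37, 4.36, 4.00 and 5.29 lay above all control values, but only 1 of 4 was well above background. With so few arrays above background, no fold is given.

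Compared directly, none of the 9 genes differed between TrbE10 and TrbE14 hearts by the adjusted p of limma (0 called, with 0% of all genes tested called in either direction), and Significance Analysis of Microarrays (SAM), the test of the study's methods run here on 2 groups, also called 0. At an unadjusted p under 0.05, 1 of the 9 did, Fbn1, where 5.96% of all genes did so. All 4 TrbE10 hearts lay below all 4 TrbE14 hearts for Fbn1, as was the case for 1.71% of all genes, and its log2 difference was -0.38 (95% interval -0.61 to -0.15, limma adjusted p = 0.533). For Eln the difference was -0.46 (95% interval -0.99 to 0.08, limma adjusted p = 0.912). Smooth muscle markers, of a cell type that makes elastin in vessel walls, were given the same comparison. At an unadjusted p under 0.05, 4 of 7 had a lower signal in TrbE10 than in TrbE14 hearts, as did 547 of all 18021 genes. The log2 differences were -0.69 for Myh11, -0.75 for Tagln, -0.81 for Cnn1 and -0.35 for Mylk. Acta2, Smtn and Myocd differed by -0.06, -0.16 and 0.02, and limma and SAM called 0 of the 7. The part of smooth muscle in the differences of Fbn1 and Eln was not tested. The difference of Ecm1 was 0.15 (95% interval -0.09 to 0.39, limma adjusted p = 0.94) and that of Dcn -0.11 (95% interval -0.29 to 0.06, limma adjusted p = 0.94). The differences of Sparc, Fn1, Mfap5, Loxl1 and Lum lay between -0.08 and 0.25. Here too the slide and the group cannot be told apart.

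**Figure D2:**
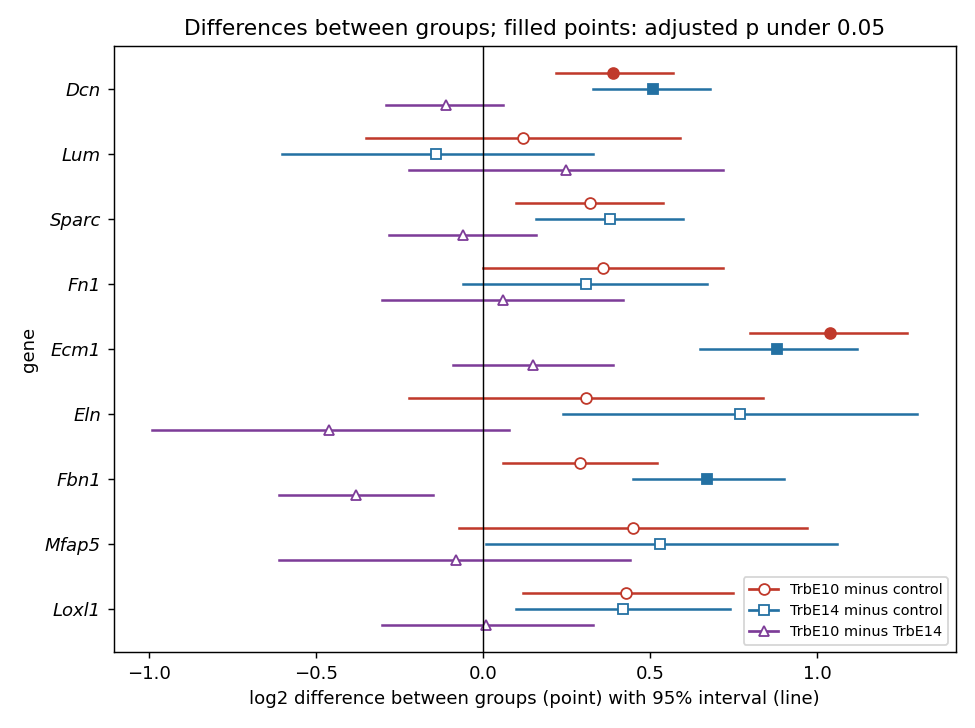
Log2 difference (x axis) with its 95% interval for each of the 9 measured genes (y axis), for TrbE10 minus control (circles), TrbE14 minus control (squares) and TrbE10 minus TrbE14 (triangles), with filled symbols where the limma adjusted p was under 0.05. Ecm1 and Dcn are filled against control in both mutants and Fbn1 in TrbE14 alone, and no symbol is filled between the mutants.

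The hearts of a group differed in how far these genes moved, and in TrbE10 hearts they did so together. The median deviation of the 9 genes from the control mean was 0.37, 0.07, 0.74 and 0.40 in TrbE10 replicates 1 to 4, and 0.49, 0.37, 0.47 and 0.45 in the TrbE14 hearts. Among TrbE10 hearts, replicate 3 was the highest for 7 of the 9 genes and replicate 2 the lowest for 7 of the 9. The control hearts had median deviations of -0.12, 0.13, -0.07 and 0.02. Leaving out TrbE10 replicate 3 lowered the median log2 change in TrbE10 hearts from 0.36 to 0.25, and leaving out TrbE10 replicate 2 raised it to 0.43 and made the number of called genes 3. Without TrbE10 replicate 3 only Ecm1 was called, as was also so without any 1 of 8 other arrays.

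**Figure D3:**
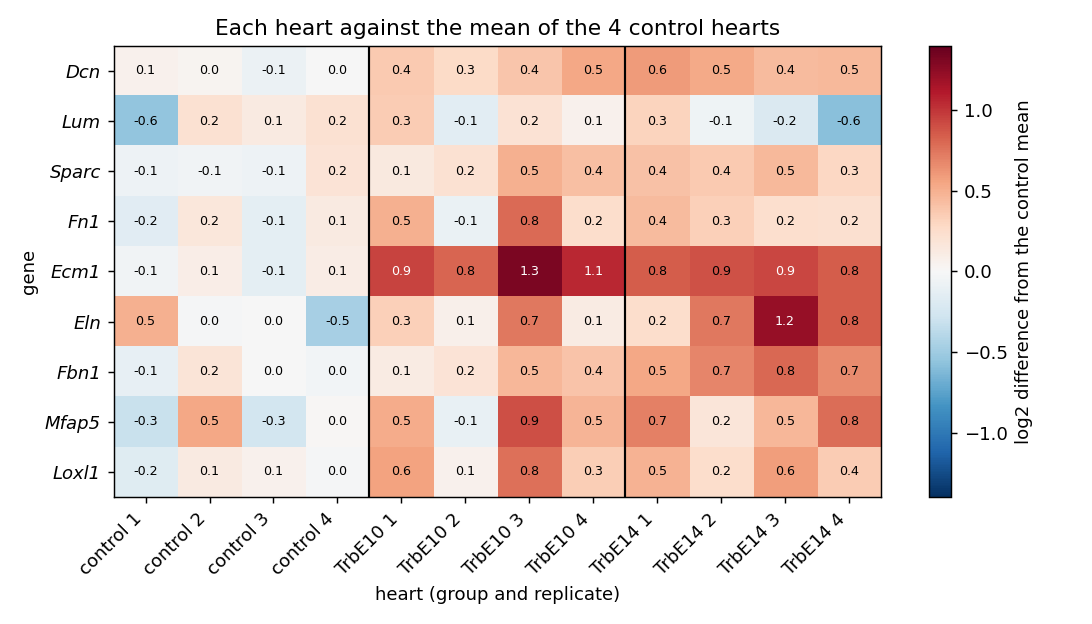
Log2 difference of each heart (columns, by group and replicate) from the mean of the 4 control hearts for each of the 9 measured genes (rows), with the colour scale and the printed value in log2 units. Ecm1 is raised in all 8 mutant hearts, and the column of TrbE10 replicate 2 is paler than that of TrbE10 replicate 3.

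As a description over the 12 arrays, which share the group differences, Loxl1 followed the mean of the other members most closely (Pearson r = 0.926), then Ecm1 (0.877), Sparc (0.845), Dcn (0.836), Fn1 (0.831), Mfap5 (0.794) and Fbn1 (0.786), while Eln (0.486) and Lum (0.0432) followed it least. With the group means removed, r was 0.881 for Loxl1, 0.866 for Ecm1 and 0.865 for Fn1, but 0.255 for Dcn, whose difference lay between groups more than among the hearts of a group. Outside the 9 genes, the pattern of their mean was most closely followed by Eng (r = 0.974), Gpx3 (0.967), Megf6 (0.958), Plat (0.954), Fstl1 (0.954) and Etv4 (0.952). Eng encodes endoglin, a TGF-beta coreceptor of endothelial cells, Plat tissue plasminogen activator, and Fstl1 a secreted glycoprotein with a domain like that of Sparc.

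Of other matrix genes, in 5 lists that hold none of the 10 genes, 69 were measured. One of them, Omd, was well above background on no control array (0 of 4) and so passed the filter through mutant arrays alone. Acan, Matn4 and Lamc3 were well above background on 1, 2 and 2 of 4 control arrays and also reached the filter in mutant groups alone. They stay in the counts, and none of them was called. In counts without Omd, chosen after seeing the data, 4 rose and 2 fell in TrbE10 hearts by limma's call, and 4 rose and 0 fell in TrbE14 hearts. Over all genes tested, 0.649% were called lower in TrbE10 and 0.128% in TrbE14 hearts. The median log2 change of the 69 genes was 0.16 in TrbE10 and 0.25 in TrbE14 hearts. At an unadjusted p under 0.05 and without Omd, 20 were higher and 4 lower in TrbE10 hearts, and 22 were higher and 3 lower in TrbE14 hearts. Of all genes tested, 7.82% were higher and 8.86% lower at an unadjusted p under 0.05 in TrbE10 hearts. In TrbE14 hearts 6.51% were higher and 7.31% lower.

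Of 8 other small leucine-rich proteoglycans measured, Omd (osteomodulin) apart, 0 were called by limma or SAM in either mutant, and 1 was higher at an unadjusted p under 0.05 in each. The Omd probe was well above background on 4 of 4 TrbE10 and 3 of 4 TrbE14 arrays, and its signal in TrbE10 hearts was higher by at least 2.53-fold than the background level of the control arrays. Because it was tested only for its mutant arrays, its test is not used. In TrbE14 hearts the largest log2 changes of this list were those of Fmod (1.06, limma adjusted p = 0.508) and Chad (0.90, limma adjusted p = 0.539), which were not called.

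Of 7 measured genes for other lysyl oxidases, procollagen processing and copper supply, 1 was called higher in each mutant, Loxl3, a lysyl oxidase with scavenger receptor domains. Its log2 signal was 6.50 ± 0.20 (SD, n = 4) in control, 7.51 ± 0.22 (SD, n = 4) in TrbE10 and 7.48 ± 0.12 (SD, n = 4) in TrbE14 hearts. It rose by 1.01 in TrbE10 hearts (limma adjusted p = 0.00344) and by 0.98 in TrbE14 hearts (limma adjusted p = 0.0064), with no overlap with control hearts. Its changes stood beside those of 0.43 and 0.42 for Loxl1.

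Of 19 other elastic fibre and microfibril genes, 0 were called by limma in either mutant. At an unadjusted p under 0.05, 6 were higher in TrbE10 hearts (7.82% of all genes) and 6 in TrbE14 hearts (6.51% of all genes). By the same measure 1 was lower in TrbE10 hearts (8.86% of all genes) and 0 in TrbE14 hearts (7.31% of all genes). The lower gene was Ltbp1, with a log2 change of -0.60 in TrbE10 hearts (limma adjusted p = 0.168). A change above 0 was seen for 15 and 17 of the 19, against 8176 and 7979 of all 18021 genes tested. SAM called 1 of the 19 higher in TrbE10 hearts, Efemp2 (log2 change 0.46, limma adjusted p = 0.0548), and 0 in TrbE14 hearts. It called 327 of all 18021 genes higher in TrbE10 and 186 in TrbE14 hearts. The largest changes were those of Fbln7 in TrbE10 hearts (1.53, limma adjusted p = 0.236) and of Ltbp2, a protein that associates with fibrillin microfibrils, at 1.29 (limma adjusted p = 0.0885) in TrbE10 and 1.1 (limma adjusted p = 0.214) in TrbE14 hearts. Fbln2 changed by 0.73 (limma adjusted p = 0.11) in TrbE14 hearts. None of these was called by limma.

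Of 20 other matrix glycoproteins and proteoglycans, 3 were called higher in each mutant, and in TrbE10 hearts 2 were called lower. Svep1, a large cell adhesion protein of the matrix, rose by 1.36 in TrbE10 hearts (limma adjusted p = 0.000381) and by 1.07 in TrbE14 hearts (limma adjusted p = 0.00278). Smoc1, a member of the Sparc family, rose by 1.53 (limma adjusted p = 0.00729) and by 1.59 (limma adjusted p = 0.00881). Srpx rose by 1.24 (limma adjusted p = 0.00302) and by 0.94 (limma adjusted p = 0.0234). Smoc2, the other member of that branch of the Sparc family, fell by 0.81 in TrbE10 hearts (limma adjusted p = 0.0406), a call that SAM did not make, and its log2 change was -0.87 in TrbE14 hearts (limma adjusted p = 0.0514). Vtn, which encodes vitronectin, fell by 0.88 in TrbE10 hearts (limma adjusted p = 0.018), with a log2 change of -0.65 in TrbE14 hearts (limma adjusted p = 0.0964). All 4 hearts of each mutant lay below all 4 control hearts for both Smoc2 and Vtn. Of all 18021 genes tested, 988 did so in TrbE10 and 957 in TrbE14 hearts.

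Of 15 basement membrane genes, 0 were called by limma or by SAM in either mutant, and their median log2 changes were -0.02 and 0.00. At an unadjusted p under 0.05, 3 were higher in TrbE10 hearts (7.82% of all genes) and 4 in TrbE14 hearts (6.51% of all genes). The largest changes were those of Papln (0.65, limma adjusted p = 0.119) and Agrn (0.52, limma adjusted p = 0.157) in TrbE10 hearts and of Lamc3 (0.91, limma adjusted p = 0.35) and Papln (0.54, limma adjusted p = 0.261) in TrbE14 hearts, not called. Lamc3 was well above background on 2 of 4 control, 1 of 4 TrbE10 and 3 of 4 TrbE14 arrays, so it passed the filter through TrbE14 arrays alone. It is among the 4 counted as higher in TrbE14 hearts.

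**Figure D4:**
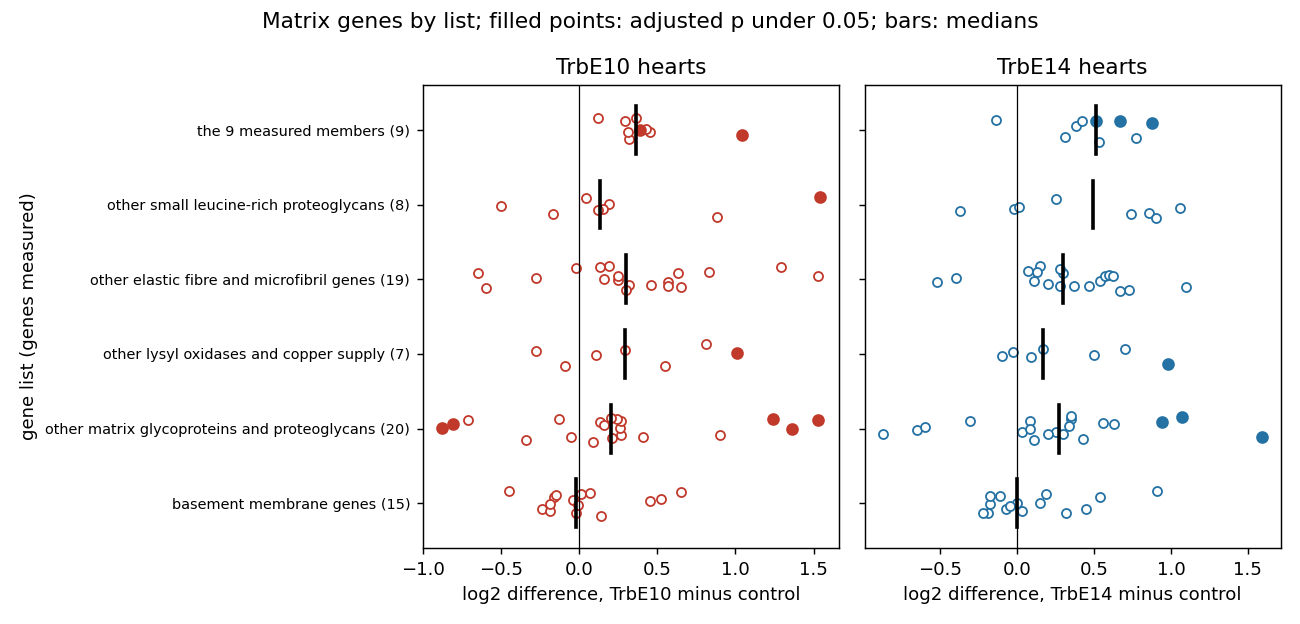
Log2 difference from control (x axis) of each measured gene in the 9 members and the 5 lists of other matrix genes (y axis, with the number of genes measured), in TrbE10 hearts on the left and TrbE14 hearts on the right, with filled points where the limma adjusted p was under 0.05 and black bars at the medians. The filled proteoglycan in TrbE10 hearts is Omd, which was at background in control hearts. The members have medians of 0.36 and 0.51, and the basement membrane genes have medians of -0.02 and 0.00.

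Markers of several cell types are given as the sum of their normalized signals on the linear scale, as the lowest and highest heart of a group. The brightest gene of a list weighs most in such a sum. By mean log2 signal in control hearts it was Gsn for fibroblasts (14.94), Acta2 for activated fibroblasts (13.98) and Comp for the valve list (9.70). A sum can therefore follow 1 gene more than a cell type. For 12 fibroblast markers the control hearts spanned 60000 to 68900, the TrbE10 hearts 65600 to 82300 and the TrbE14 hearts 67500 to 81100. Limma called 1 of the 12, Scara5, lower in TrbE10 hearts, and 0 in TrbE14 hearts, where 4 were higher and 2 lower at an unadjusted p under 0.05. SAM called Tcf21, Col1a2 and Col3a1 higher and Scara5 lower in TrbE10 hearts, and Tcf21 higher in TrbE14 hearts. Of all 18021 genes tested, SAM called 327 higher and 81 lower in TrbE10 hearts, and 186 higher and 18 lower in TrbE14 hearts. Among TrbE10 hearts, replicates 2 and 3 had the lowest and highest median deviation of the matrix genes, and they also had the lowest and highest sums of the fibroblast, macrophage, endocardial, valve, atrial and adipocyte lists. The activated fibroblast and smooth muscle sums were instead lowest in replicate 4 and highest in replicate 1. The endothelial sum was lowest in replicate 4, and the blood and skeletal muscle sums in replicate 1, with replicate 3 highest. The epicardial sum was lowest in replicate 2 and highest in replicate 4. The cardiomyocyte sum was lowest in replicate 3 and highest in replicate 1. For 8 measured markers of activated fibroblasts, control hearts spanned 14100 to 27000, TrbE10 hearts 21500 to 48200 and TrbE14 hearts 23000 to 49900, and Meox1 was called higher and Fap lower in each mutant. Acta2 is also in the smooth muscle list, Comp is also in the valve list and Ltbp2 in the elastic fibre list, so that these sums are not independent. Cthrc1, a defining marker of activated fibroblasts, was not well above background on any array.

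For 10 macrophage markers control hearts spanned 10900 to 13300, TrbE10 hearts 19700 to 23700 and TrbE14 hearts 17400 to 18800, with 5 and 1 of the 10 called higher. Without Fcgr1, which was well above background on 0 control arrays and so passed the filter through mutant arrays, 4 and 1 were called. For 5 endocardial markers the spans were 1810 to 2680, 4090 to 8030 and 4530 to 5750, with Cytl1 and Npr3 called higher in TrbE10 and Cytl1 in TrbE14 hearts, where SAM called Npr3 too. Of the other endocardial markers, Nfatc1, Tmem108 and Plvap had log2 changes of -0.02, -0.14 and 0.24 in TrbE10 hearts and -0.20, 0.07 and 0.31 in TrbE14 hearts, none of them called, whereas those of Cytl1 were 2.07 and 1.73. Neither the macrophage nor the endocardial sum overlapped between control and mutant hearts. For 8 endothelial markers the spans were 33000 to 44000, 43500 to 49200 and 42400 to 50900, with Vwf called higher in each mutant. For 7 smooth muscle markers they were 42700 to 56300, 43600 to 65800 and 48300 to 78400, and 0 were called by limma or SAM, with 0 and 3 higher at an unadjusted p under 0.05. For 6 epicardial and mesothelial markers they were 524 to 1170, 1200 to 2980 and 1230 to 2590, with Krt19 called higher in each mutant. Krt19, Krt8 and Muc16 were well above background on 1, 0 and 2 of 4 control arrays, and so passed the filter through mutant arrays. Because Krt19 was tested only for its mutant arrays, its test is not used. The epicardial sums hold these markers and are therefore not compared between groups. For 6 valve markers the spans were 648 to 1990, 2400 to 7200 and 3460 to 4150. Limma and SAM called 0 of them, and 2 were higher in each mutant at an unadjusted p under 0.05. Comp, the brightest, had log2 changes of 2.14 in TrbE10 and 1.98 in TrbE14 hearts. Those of Lect1 were 1.22 and 1.07, and those of Prg4 0.86 and 0.76. Sox9 had 0.46 and -0.14, Acan -0.13 and 0.56, and Chad -0.50 and 0.90. Sox9 and Acan were well above background on 2 and 1 of 4 control arrays, and so passed the filter through mutant arrays. The part of these cell types in the changes of the matrix genes was not tested.

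The sum of 8 cardiomyocyte markers lay between 1120000 and 1270000 over all hearts, that of 8 blood markers between 136000 and 396000, and that of 5 adipocyte markers between 734 and 1550 in control, 89.7 and 748 in TrbE10 and 480 and 1010 in TrbE14 hearts. Limma and SAM called 0 genes of these 3 lists, of which 1 cardiomyocyte marker in each mutant, 3 adipocyte markers in TrbE10 and 1 blood marker in TrbE14 hearts were lower at an unadjusted p under 0.05. Of 7 atrial markers, Bmp10 was well above background on 0 control arrays and so passed the filter through mutant arrays, and of the others 1 was called higher in TrbE10 hearts, Sln, and 0 by limma in TrbE14 hearts, where SAM called Sln and the unadjusted p of 2 was under 0.05. Of 4 skeletal muscle markers, 1 was called lower in TrbE10 hearts. Their part in the results was not tested.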

How the data were processed

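The authors deposited scanner files made with Agilent Feature Extraction 10.5, whose processed signal is a background-subtracted intensity on a linear scale, and they also deposited log2 values that they had quantile normalized and filtered. These intensities were taken to log2 and quantile normalized with limma 3.58.1 in R 4.3.3. Control spots were dropped before this. After it, the 93 to 131 outlier spots per array were treated as missing and repeated spots were averaged. Probes were tested if at least 3 of 4 arrays (75%) in any group were well above background, which was so for 24593 of 55681. There were 0 saturated spots. Limma fitted a mean for each group over all 12 arrays, with 9 residual degrees of freedom and 2.2 from the prior, and p-values were adjusted over the tested probes by the method of Benjamini and Hochberg. No source says whether hearts of a group came from separate litters, so p-values measure the spread between these hearts. Precision is limited by the number of arrays. Single values were compared by exact two-sided permutation tests over 70 label orders.

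The members and the gene lists were chosen with earlier results of these data known. The text names every member, up to 4 called genes with the largest changes per matrix list and comparison (or the 2 largest where none was called), and the 6 genes most like the members' mean. Smoc2, Efemp2 and Ltbp1 lie outside that rule and were named after their values were seen. For a probe at background in control hearts, a lower bound of the fold was set against the mean over control arrays of the higher of its own signal and the array's dimmest signal well above background. The alternatives tried were 75th percentile scaling, normexp with an offset of 50, the authors' normalized values, a filter on 9 of 12 arrays, no filter, fits on 2 groups, a replicate block, sex, SAM, the mean over a gene's probes and leaving out each array. Matplotlib 3.10.9 under Python 3.11.15 drew the figures.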

Additional observations from a re-analysis of the deposited data

Results flagged for a closer look

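In 27 groups of 4 hearts, 2 values stood apart from the other hearts of their group by Dixon's test, where chance alone gives about 1 in 20 groups. Lum in control replicate 1 had a log2 signal of 11.25, below the 11.93 to 12.01 of the other control hearts, and Sparc in control replicate 4 had a log2 signal of 15.90, above the 15.64 to 15.66 of the others. The probes of Lox, which took no part in the tests because they failed the filter, were well above background on 0 control arrays. The probe A_55_P2032678 was so on 2 TrbE10 arrays and 1 TrbE14 array, and A_66_P138929 on 1 TrbE10 array and 1 TrbE14 array. Whether these differ from control was not tested.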

How the results depend on the processing

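Ecm1 was called in both mutants under all 22 alternatives, with log2 changes of 0.94 to 1.11 in TrbE10 hearts and 0.80 to 0.93 in TrbE14 hearts, and none of the 9 genes was called between the mutants under any of them (0). In TrbE10 hearts the number of called genes was 1 in place of 2, Dcn being lost, with scaling to the 75th percentile (adjusted p = 0.101), with the fit of 2 groups only (adjusted p = 0.0869) and with the replicate block (adjusted p = 0.0738). In TrbE14 hearts Dcn was lost with the same scaling (adjusted p = 0.0588) and with the replicate block (adjusted p = 0.0506), which left 2 called. The direction of Lum, called nowhere, changed under 1 alternative in TrbE10 and 2 in TrbE14 hearts. SAM, normexp, the authors' normalized values, both other filters, sex and the mean of all probes called the same genes as the main setting. Replicate numbers were not taken as pairs: deviations of same-numbered hearts correlated from -0.24 to 0.08 between control and either mutant, and at 0.37, 0.31, -0.01 and 0.48 between the mutants, where 3 of 4 hearts correlated best with their own number, a hint from the data and not from the design. With each array left out, 1 to 3 genes were called in TrbE10 hearts, 1 to 3 in TrbE14 hearts and 0 between the mutants. The lowest in TrbE14 hearts came without control replicate 3 or control replicate 4, and 3 were called in TrbE10 hearts once TrbE10 replicate 2 was left out. The median log2 change ranged from 0.25 to 0.43 in TrbE10 hearts, from 0.43 to 0.53 in TrbE14 hearts, and from -0.11 to 0.10 between the mutants, where it turned to 0.10 without TrbE10 replicate 2. The cause was not tested. Over all genes, 344 were called in TrbE10 hearts, 217 with the fit of 2 groups, 165 with no filter and 135 (without TrbE10 replicate 3) to 587 (without TrbE10 replicate 2) with an array left out. In TrbE14 hearts 120 were called, 202 with normexp, 204 with SAM and 71 (without control replicate 3) to 158 (without TrbE10 replicate 2) with an array left out. Of the called genes, 66.0% were higher in TrbE10 hearts, 55.2% under 75th percentile scaling, 77.0% with no filter and 80.1% under SAM, and in TrbE14 hearts 80.8%, 67.8% with normexp and 91.2% under SAM. A slide block could not be fitted, since the slide follows the TrbE10 group, and for TrbE14 the comparison lies within 1 slide.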
